A study of Mus musculus with 2 samples.

Results

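The 10 genes described here, *Slc1a3*, *Slc1a2*, *Aldoc*, *Mt1*, *Mt3*, *Sparcl1*, *Apoe*, *Aqp4*, *Gfap* and *Fabp7*, are genes of astrocytes that radial glia can already express before astrocytes form. They were taken by name, as 10 of the 32285 genes in the count matrices, and all 10 were found. Their levels were followed in 2 wild-type mouse embryos at E16.5 (embryonic day 16.5), labelled EoMltt3 WT and numbered 4 and 5. The extraction protocol names the cortex, while the tissue label reads brain hemispheres, so tissue from outside the cortex may be among the cells. The study's supplement gives C57BL/6J mice, and the labels name no treatment, so there was 1 condition and n = 2 embryos. Each embryo gave 1 droplet-based 3′ single-cell RNA library, in which each captured RNA molecule is counted once by its unique molecular identifier (UMI).

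Radial glia are the stem cells of the embryonic cortex. They divide to renew themselves, pass through *Eomes*-expressing intermediate progenitors to produce excitatory neurons, and later switch to making astrocytes. Part of the astrocyte programme, such as uptake of glutamate and binding of lipids and metal ions, is known to be expressed in radial glia, whereas *Gfap* and *Aqp4* are better known from mature astrocytes. The 10 genes cover glutamate uptake (*Slc1a3*, also called GLAST, and *Slc1a2*, also called GLT-1), glycolysis (*Aldoc*, aldolase C), metal binding (the metallothioneins *Mt1* and *Mt3*), lipid transport (*Fabp7*, a brain fatty-acid binding protein, and *Apoe*, apolipoprotein E), the extracellular matrix (*Sparcl1*), water transport (*Aqp4*) and the cytoskeleton (*Gfap*).

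The deposited matrices held 12825 barcodes with 124318613 UMIs in embryo 4 and 12289 barcodes with 117679925 UMIs in embryo 5, and 9932 and 10416 cells were kept after quality filters. The median depth of kept cells was 10046.5 and 8832 UMIs. The libraries shared 46 barcodes. A radial glia was a cell with at least 3 *Slc1a3* UMIs and at most 1 *Eomes* UMI, which gave 1118 cells (11.3% of kept cells) in embryo 4 and 1155 (11.1%) in embryo 5. *Slc1a3* set this gate, so its excess in radial glia is not a result, and counts below are over the other 9 genes.

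The rule did not pick radial glia alone. Of the cells it chose, 285 (25.5%) in embryo 4 and 301 (26.1%) in embryo 5 also passed the UMI gate of another class, and 247 and 234 of these passed the gate for excitatory neurons (at least 3 UMIs of *Neurod2* and *Neurod6*). Another 5 and 48 passed the fibroblast gate, which differed between the embryos. They are called mixed cells below for passing another gate as well, and the name refers to the gates only. These mixed cells were poor in radial glial markers. Their summed level of 8 radial glia markers was 466.2 and 450.6 CPM (counts scaled to 1000000 UMIs per class and embryo), against 3173 and 3112 CPM in the 833 and 854 radial glia that passed no other gate. Their 6 excitatory neuron markers summed to 3786 and 3210 CPM, against 176.4 and 128.8 CPM. The same 6 markers summed to 2803 and 2984 CPM in GABAergic neurons, so this sum marks neurons and not excitatory neurons alone. The 246 and 232 cells that passed only the excitatory gate besides had median depths of 14468 and 12095 UMIs, against 11966 and 10909.5 in the 833 and 854 cells, and the part of doublets in them was not tested. The 833 and 854 cells are called unmixed radial glia below, and values of the genes for them are set beside those of the rule where the choice of cells matters.

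Summed over the cells nearest the threshold, genes of radial glia and of neurons were both found. *Fabp7* was at 1156 and 1233 CPM in cells with 2 *Slc1a3* UMIs, just outside the rule, at 1823 and 1789 CPM in cells with 3, and at 5232 and 5510 CPM in cells with 10 or more. *Neurod6*, a transcription factor of excitatory neurons, fell over the same cells from 666.3 and 499.4 CPM through 407.9 and 382.2 CPM to 66.95 and 68.59 CPM. Both levels thus changed by degrees across the cut.

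Levels are given as CPM, the UMIs of a gene summed over the cells of 1 class in 1 embryo and divided by all UMIs of that class. A UMI counts molecules, not bases, and different genes are set side by side without ranking. *Fabp7* was at 3121 CPM in embryo 4 and 3324 CPM in embryo 5 over all radial glia of the rule, and at 4109 and 4491 CPM in unmixed radial glia. *Mt3* was at 611 and 707.6 CPM by the rule and at 803.1 and 966.6 CPM in unmixed cells. *Aldoc* was at 238.9 and 256.8 CPM by the rule, and at 318.7 and 348.8 CPM in unmixed cells. The mixed cells were lower, with *Fabp7* at 633.3 and 369.2 CPM, *Mt3* at 127.5 and 51.73 CPM and *Aldoc* at 37.98 and 23.9 CPM.

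*Mt1* was at 123.9 and 111.7 CPM by the rule and at 161 and 148.5 CPM in unmixed radial glia. *Apoe* was at 50.89 and 68.55 CPM by the rule and at 54.03 and 65.34 CPM in unmixed cells. *Slc1a2* was at 34.82 and 50.56 CPM by the rule and at 31.02 and 55.49 CPM in unmixed cells, so that embryo 5 lay above embryo 4 in both. *Slc1a3* itself was at 556.1 and 588.8 CPM in unmixed radial glia.

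*Sparcl1* depended on which cells were counted. It was at 20.72 CPM in embryo 4 and 52.49 CPM in embryo 5 by the rule, but at 18.29 and 28.11 CPM in unmixed radial glia. In the mixed cells it was at 26.82 and 114.2 CPM. There the summed level of 4 fibroblast markers was 2.374 CPM in embryo 4 and 370.5 CPM in embryo 5. In the same cells 4 mural markers summed to 0.2374 and 128.4 CPM, and 4 endothelial markers to 2.136 and 11.03 CPM. The part of each in *Sparcl1* was not tested. Leaving these cells out thus lowered *Sparcl1* mainly in embryo 5.

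The late genes were at the limit of detection. *Aqp4*, the astrocytic water channel, was at 2.923 and 3.941 CPM in unmixed radial glia and *Gfap*, the intermediate filament of astrocytes, at 0.7544 and 1.348 CPM. *Gfap* was found as 8 UMIs in 8 of 833 cells and 13 UMIs in 13 of 854 cells, never more than 1 UMI in a cell. No cell held UMIs of both *Gfap* and *Aqp4*. With so few cells of either gene hardly any would be expected to hold both, so this does not place the genes in separate cells.

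**Figure D1:**
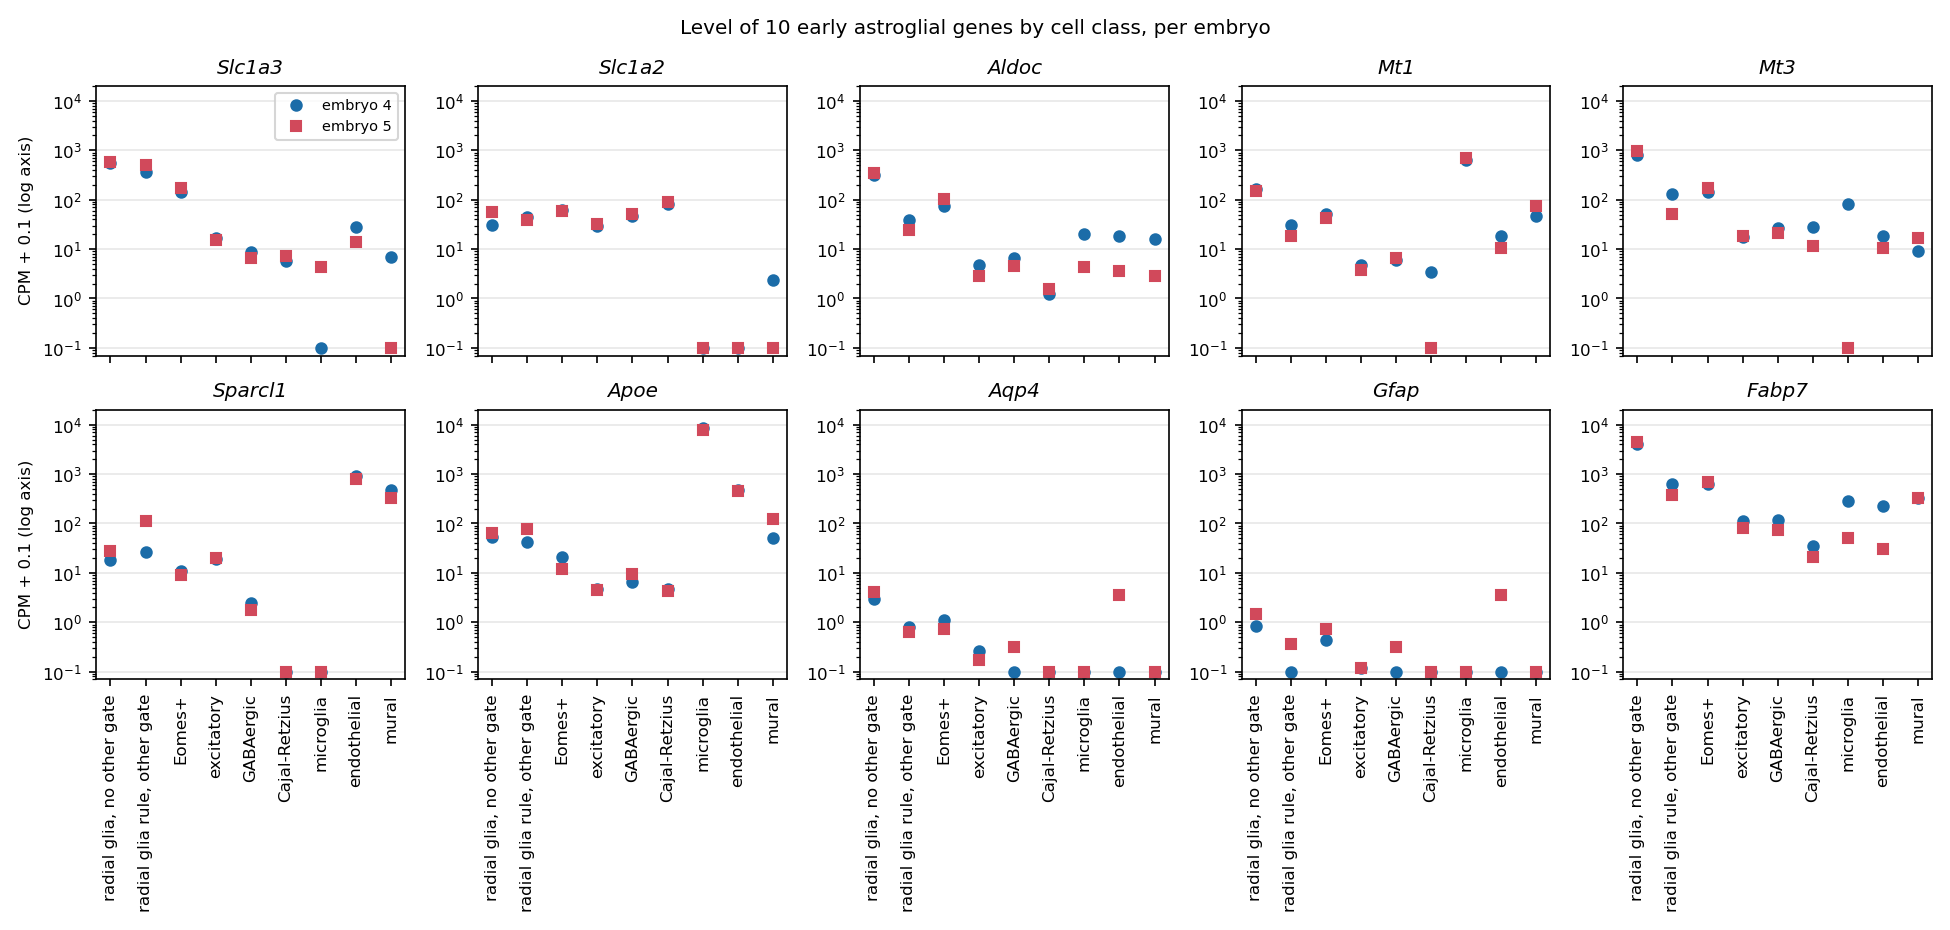
Level of each of the 10 genes (CPM + 0.1, log axis) in each cell class, 1 point per embryo (embryo 4 circles, embryo 5 squares). *Fabp7*, *Mt3*, *Aldoc* and *Mt1* were highest in radial glia among the progenitor and neuron classes, *Apoe* reached 8744 and 7796 CPM in microglia, and *Sparcl1* reached 912.6 and 778.3 CPM in endothelial cells.

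The other cell classes placed each gene. *Fabp7* was at 622.3 and 706 CPM in *Eomes*+ cells, at 114.6 and 80.27 CPM in excitatory neurons and at 116.5 and 74.13 CPM in GABAergic neurons. *Mt3* was likewise highest in radial glia and next in *Eomes*+ cells, with 140.5 and 170.7 CPM in *Eomes*+ cells, 17.6 and 18.01 CPM in excitatory neurons and 26.87 and 21.51 CPM in GABAergic neurons. *Aldoc* was at 73.89 and 101 CPM in *Eomes*+ cells, and at or under 6.482 CPM in both neuron classes of both embryos. In the 2 neuron classes these genes overlapped or lay close together, whereas *Eomes*+ cells lay between neurons and radial glia in both embryos.

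*Slc1a2* was spread over neurons and progenitors. It was at 61.96 and 58.3 CPM in *Eomes*+ cells, 47.36 and 52.07 CPM in GABAergic neurons, 29.1 and 31.46 CPM in excitatory neurons and 81.95 and 88.19 CPM in Cajal-Retzius cells, early-born neurons of the marginal zone. By the rule, radial glia lay above excitatory neurons in each embryo and below GABAergic neurons. Unmixed radial glia lay above excitatory neurons within each embryo, below GABAergic neurons in embryo 4 and above them in embryo 5. *Slc1a2* had no UMI in 23 and 33 endothelial cells and in 20 and 22 microglia, classes of few cells.

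*Apoe* and *Sparcl1* were highest outside the neural lineage. *Apoe* was at 8744 and 7796 CPM in the 20 and 22 microglia, the immune cells of the brain, and at 474.5 and 454.6 CPM in endothelial cells. *Sparcl1* was at 912.6 and 778.3 CPM in endothelial cells and at 483.4 and 328.5 CPM in the 40 and 39 mural cells of vessels. *Mt1* was also at 643.9 and 701.6 CPM in microglia, above its level in radial glia. The 4 microglial markers summed to 18.2 and 22.09 CPM in unmixed radial glia, with 1 of 4, *Trem2*, at 0 in both embryos, and the 4 endothelial markers to 1.697 and 0.9334 CPM.

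In all, 8 of the 9 genes other than *Slc1a3* had a higher CPM in radial glia by the rule than in *Eomes*+ cells, excitatory neurons and GABAergic neurons, in each embryo. The exception was *Slc1a2*. Among the 8, *Gfap* was near the limit of detection, at 0.5399 and 1.041 CPM against 0.3314 and 0.6477 CPM in *Eomes*+ cells. *Sparcl1* of embryo 4 was close, at 20.72 CPM against 19.03 CPM in excitatory neurons. In unmixed cells *Sparcl1* was a further exception, since in embryo 4 it was at 18.29 CPM in radial glia. The share of all genes with this pattern was not taken. The statistical test used the UMI sums of 2 embryos per class in the quasi-likelihood test of edgeR, adjusted over all genes tested (Benjamini-Hochberg) and called at an adjusted p under 0.05. Both classes of an embryo came from the same animal.

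Against *Eomes*+ cells, 8 of the 9 genes passed the filter on low counts and 6 were higher in radial glia, beside 16.5% of all 14358 genes tested, and none was lower, beside 12.4%. DESeq2 also called no member lower here or against either neuron class, and *Slc1a2* against *Eomes*+ cells was the one member lower in edgeR before adjustment, at the same threshold. *Fabp7* was 2.24 higher on the log2 scale (SE 0.0959, edgeR adjusted p = 5.22e-05) and *Mt3* was 2.05 higher (SE 0.127, edgeR adjusted p = 0.000126). *Apoe*, *Aldoc* and *Mt1* followed with log2 differences of 1.82, 1.47 and 1.31. *Sparcl1* was higher by 1.83 (SE 0.511, edgeR adjusted p = 0.038) by the rule and by 1.19 in unmixed cells.

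*Slc1a2* and *Aqp4* did not pass in this comparison. *Slc1a2* had a log2 difference of -0.53 (edgeR adjusted p = 0.0755), and with the embryo as a block it was called lower, at -0.55 (edgeR adjusted p = 8.89e-06). *Aqp4*, with 3 and 2 UMIs in all *Eomes*+ cells, had an edgeR adjusted p of 0.0506 by the rule and of 0.0164, as higher, in unmixed radial glia. In unmixed radial glia 7 of 8 genes tested were higher and none lower, beside 18.6% and 16.9% of all genes. The block gave 7 higher and 1 lower by the rule, and its share over all genes is not given here.

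Against excitatory neurons all 9 genes could be tested, and 7 were higher in radial glia (31% of 17241 genes were) and none lower (30.1%). *Aldoc* was 5.90 higher on the log2 scale (SE 0.215, edgeR adjusted p = 4.96e-06), *Mt3* 5.07, *Fabp7* 4.91, *Mt1* 4.70 and *Apoe* 3.57. *Gfap* and *Aqp4* were called as well, on 1 and 1 *Gfap* UMIs and 9 and 4 *Aqp4* UMIs in all excitatory neurons of embryos 4 and 5, where *Gfap* was at 0.0186 and 0.0191 CPM and *Aqp4* at 0.167 and 0.0766 CPM. *Slc1a2* was not called at 0.35 (edgeR adjusted p = 0.105). *Sparcl1* was not called either, at 0.74 by the rule (edgeR adjusted p = 0.125) and 0.01 in unmixed radial glia (SE 0.168, edgeR adjusted p = 0.949). With unmixed cells the count was again 7 higher and none lower, beside 33.1% and 36.4%.

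Against GABAergic neurons 8 genes were tested, of which 7 were higher (29.7% of 15454 genes) and none lower (28.3%). The log2 difference was 5.44 for *Aldoc*, 5.03 for *Fabp7*, 4.72 for *Mt3*, 4.22 for *Mt1* and 2.84 for *Apoe*, and *Aqp4* was called on 0 and 2 UMIs in all GABAergic neurons. *Slc1a2* stood at -0.27 (edgeR adjusted p = 0.199) and was called lower with the embryo as a block, which gave 7 higher and 1 lower. The shares in this paragraph are from the fit without the block. *Sparcl1* was higher by 4.10 (SE 0.52, edgeR adjusted p = 0.000452) by the rule and by 3.43 (SE 0.291, edgeR adjusted p = 1.28e-05) in unmixed radial glia. It was at 2.405 and 1.655 CPM in GABAergic neurons and at 19.03 and 20.34 CPM in excitatory neurons. The 3 comparisons share the radial glia sums. In unmixed radial glia 7 were higher and none lower, beside 33.2% and 33.6%.

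The wider astroglial programme was read from lists of other genes. Of 35 other astrocyte genes, 32 were tested against *Eomes*+ cells, with 24 higher and 1 lower in radial glia by the rule and a median log2 difference of 1.30, against 0.00 over all genes. In unmixed cells 24 were higher and 2 lower of 30, among them *Aldh1l1*, a folate enzyme and astrocyte marker (24.89 and 33.4 CPM against 2.982 and 3.239 CPM), and *Tnc*, an extracellular matrix glycoprotein (278.3 and 348.3 CPM against 46.72 and 39.51 CPM). *Pla2g7*, a phospholipase of the same list, was lower, at 2.452 and 1.245 CPM against 12.26 and 52.14 CPM. Against excitatory neurons 26 of 33 were higher and 5 lower by the rule (25 and 5 in unmixed cells), and against GABAergic neurons 24 of 32 were higher and 3 lower in either set of cells. Of all genes tested by the rule, 16.5% were higher and 12.4% lower than in *Eomes*+ cells. The shares were 31% and 30.1% against excitatory and 29.7% and 28.3% against GABAergic neurons. In unmixed cells the 3 pairs of shares were 18.6% and 16.9%, 33.1% and 36.4%, and 33.2% and 33.6%.

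Regulators of gliogenesis moved in both directions. Of 31 tested against *Eomes*+ cells, 17 were higher and 7 lower by the rule (median log2 difference 0.75), and 16 and 5 in unmixed radial glia. *Id3*, an inhibitor of neurogenic transcription factors, was at 68.93 and 59.84 CPM in unmixed radial glia and at 4.639 and 3.239 CPM in *Eomes*+ cells. The Notch receptor gene *Notch2* was at 271.7 and 287.7 CPM against 46.39 and 56.68 CPM. *Stat3*, which transmits gliogenic cytokine signals, was lower in radial glia, at 20.27 and 16.28 CPM against 65.28 and 42.1 CPM. Against excitatory neurons 23 of 32 regulators were higher and 4 lower in either set of cells, *Hes1*, a Notch target, among the former (111.7 and 131.8 CPM in unmixed cells against 1.412 and 1.129 CPM), and *Nfix* among the latter (361.3 and 354.7 CPM against 743.1 and 696.4 CPM). Against GABAergic neurons 25 of 32 were higher and 3 lower by the rule, and 28 and 3 in unmixed cells. Beside these counts stand the shares over all genes by the rule. They were 16.5% higher and 12.4% lower against *Eomes*+ cells, 31% and 30.1% against excitatory and 29.7% and 28.3% against GABAergic neurons. The regulators lower than in *Eomes*+ cells in unmixed radial glia were near the 16.9% over all genes.

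Other lists framed these counts. Of 15 further genes of lipid and metal handling that were tested, 7 were higher and 1 lower than in *Eomes*+ cells by the rule, and 7 and 2 in unmixed cells. Over all genes 16.5% were higher and 12.4% lower by the rule, and 18.6% and 16.9% in unmixed cells. The zinc transporter *Slc39a12* was at 3.017 and 2.074 CPM in unmixed radial glia and at 0 and 0.3239 CPM in *Eomes*+ cells, while *Slc30a10* was lower in radial glia (20.09 and 21.78 CPM against 56.33 and 65.75 CPM). Of 20 core radial glia genes 12 were higher and 4 lower by the rule, and 14 and 2 in unmixed cells. Of 19 neurogenic genes 14 were lower and 2 higher by the rule, and all 19 were lower in unmixed cells, whose gates leave out neurons.

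How many radial glia held each gene depended on depth. In unmixed radial glia at full depth, a *Fabp7* UMI was found in 97% of cells in embryo 4 and 98.5% in embryo 5, *Mt3* in 87.8% and 89.3%, *Aldoc* in 81.4% and 83.1%, and *Mt1* in 66.4% and 61.9%. *Apoe* was found in 33.9% and 31.5%, *Slc1a2* in 16.8% and 23.4%, and *Sparcl1* in 11.9% and 13.8%. By the rule, *Fabp7* was in 87.3% and 85.1%, *Mt3* in 71.7% and 69.9% and *Aldoc* in 64.3% and 63.7% of cells, the 3 genes found in at least 50% of the cells of both embryos. Radial glia of the rule had medians of 12681 and 11239 UMIs and excitatory neurons of 10835 and 9517, so the shares were compared after every cell was thinned to 3000 UMIs.

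At 3000 UMIs, *Fabp7* was found in 94.8% of unmixed radial glia of embryo 4 (exact 95% interval 93.1 to 96.2%) and 97% of embryo 5, against 28.4% and 20.9% of excitatory neurons. *Fabp7* UMIs were also in 23.5% and 15.4% of GABAergic neurons. Whether free RNA in the droplets or expression in neurons gave these shares was not tested. *Mt3* was in 69.1% and 71% of unmixed radial glia and in 5.44% and 4.43% of excitatory neurons. *Aldoc* was in 52.8% and 57.9% against 1.51% and 0.774%, and *Mt1* in 34.7% and 31.4% against 1.51% and 1.12%.

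*Apoe* was in 9.64% and 13.4% of unmixed radial glia at 3000 UMIs, against 1.25% and 1.43% of excitatory neurons. *Slc1a2* was in 7.17% (exact 95% interval 5.49 to 9.17%) and 11.6% (9.49 to 13.9%) of unmixed radial glia, in 7.08% and 7.07% of excitatory neurons and in 11.02% and 10.99% of GABAergic neurons, so that radial glia lay near excitatory neurons in embryo 4 and above them in embryo 5, and near GABAergic neurons in embryo 5. *Sparcl1* was in 4.08% and 6.56% of unmixed radial glia and in 4.72% and 4.59% of excitatory neurons. The intervals cover counting error only.

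*Aqp4* and *Gfap* stood above their shares in excitatory neurons at full depth and could not be read at 3000 UMIs. *Aqp4* had a UMI in 30 of 833 (3.6%, exact 95% interval 2.44 to 5.1%) and 33 of 854 (3.86%, 2.68 to 5.38%) unmixed radial glia, against 8 of 4757 (0.168%) and 4 of 5233 (0.0764%) excitatory neurons. *Gfap* had one in 8 cells (0.96%, 0.416 to 1.88%) and 13 cells (1.52%, 0.813 to 2.59%), against 1 excitatory neuron in each embryo. After thinning, 1 and 3 unmixed radial glia kept a *Gfap* UMI.

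**Figure D2:**
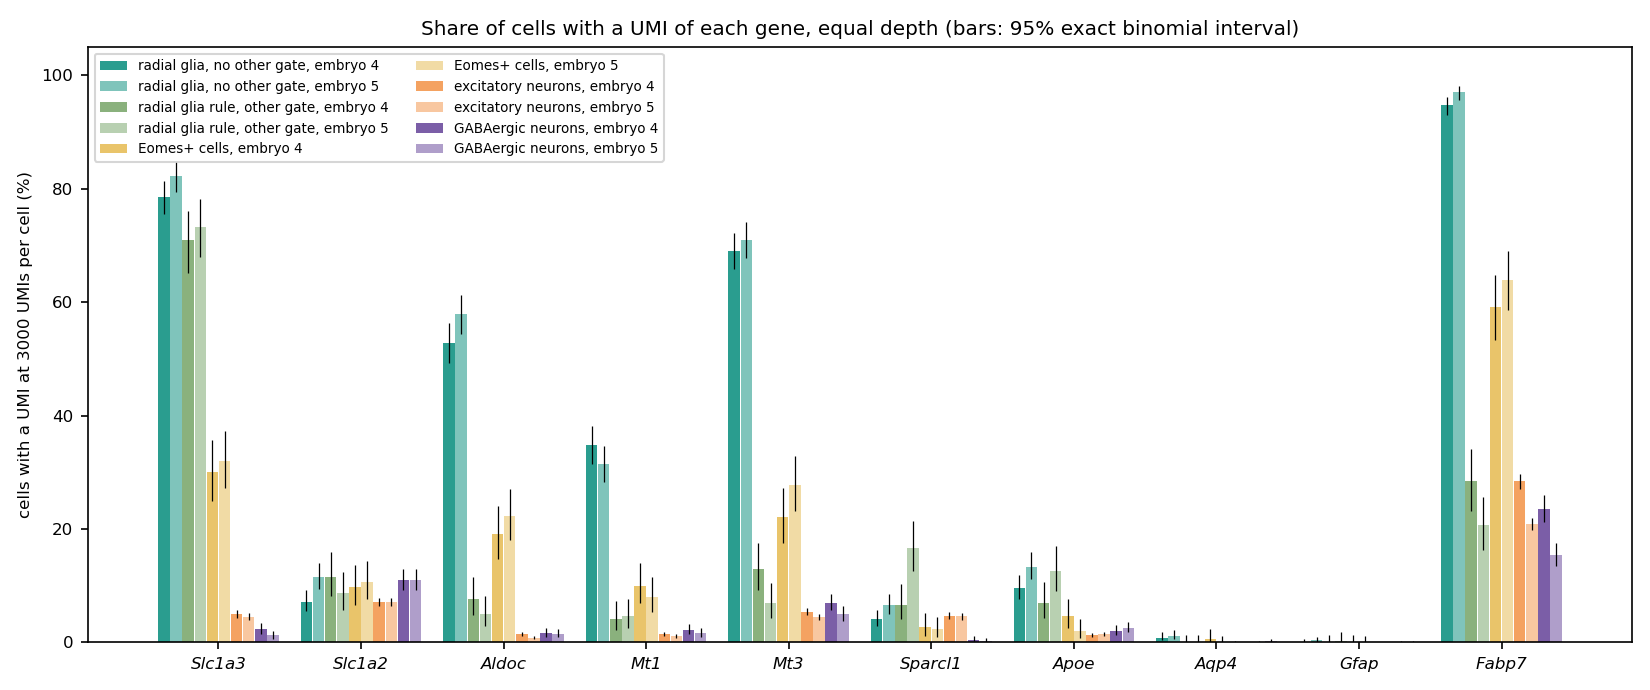
Share of cells with at least 1 UMI of each gene after every cell was thinned to 3000 UMIs (percent), for each cell class and embryo, with exact 95% binomial intervals as error bars. *Fabp7*, *Mt3*, *Aldoc* and *Mt1* separated radial glia from neurons, while the *Slc1a2* and *Sparcl1* bars of radial glia and excitatory neurons lay within 5 percentage points of each other.

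The genes differed in how evenly radial glia shared them. The 5% of unmixed radial glia with most UMIs of a gene, 42 and 43 cells, held 17.7% and 17.5% of all *Aldoc* UMIs, 20.1% and 21.6% of *Mt3*, 22.7% and 24% of *Fabp7* and 23.4% and 25.1% of *Mt1*. The same share of cells held 48.5% and 50.5% of *Apoe* UMIs, 63.5% and 51.6% of *Slc1a2* and 70.6% and 68.3% of *Sparcl1*. Of the 42 and 43 cells with most *Apoe*, none had a UMI of the microglial C1q genes, which 0.379% and 0.493% of the other unmixed cells had. At such low rates none would be expected among so few cells, so this cannot tell where the *Apoe* came from. Of the same cells 5 and 4 had a UMI of the endothelial genes, and the rate in the other cells is not given here. A median unmixed radial glia held 36 and 34 *Fabp7* UMIs, with a maximum of 481 and 567.

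Promoters of *Aldoc* and *Fabp7* are shown because these members were among each other's nearest genes over the cell classes, as given below, with the 250 bases before the RefSeq start site, for *Aldoc* the first of its 2 (build GRCm38.p6, plus strand). Capitals mark matches, on either strand, to the RBPJ core (TGGGAA), the site of the Notch effector, and to the NFI half-site (TTGGCA), bound by the gliogenic NFI factors. Of the 10 genes, 8 were matched by symbol in the promoter table.
*Aldoc*, chr11:78322823-78323072: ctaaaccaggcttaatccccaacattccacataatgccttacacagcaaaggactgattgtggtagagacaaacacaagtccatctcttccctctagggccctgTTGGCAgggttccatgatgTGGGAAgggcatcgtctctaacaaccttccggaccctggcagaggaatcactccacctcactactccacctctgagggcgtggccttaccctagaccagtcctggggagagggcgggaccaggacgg
*Fabp7*, chr10:57784673-57784922: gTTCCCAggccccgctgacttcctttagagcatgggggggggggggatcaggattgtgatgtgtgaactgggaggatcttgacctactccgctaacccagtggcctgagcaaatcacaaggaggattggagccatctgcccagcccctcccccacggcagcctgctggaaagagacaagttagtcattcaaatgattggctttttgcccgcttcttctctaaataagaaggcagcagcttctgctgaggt
The *Aldoc* promoter held 1 NFI half-site 146 bases and 1 RBPJ core 127 bases before the start, and the *Fabp7* promoter 1 RBPJ core 249 bases before it. In windows of 300 bases (250 before and 50 after the start), 25.6% of all 32851 RefSeq promoters held the RBPJ core and 14.1% the NFI half-site, so these matches were common ones. A STAT motif (TTCNNNGAA, in 8.3% of promoters) lay 96 bases before the *Slc1a3* start, 2 bases before the *Gfap* start, and 124 and 83 bases before the second *Aldoc* start. That second window also held 2 RBPJ cores, 17 bases before and 17 after its start, and no NFI half-site. The *Slc1a2* window held none of the motifs searched.

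The metallothionein genes are neighbours on chromosome 8, *Mt3* at 94152607 to 94154148 and *Mt1* at 94178883 to 94180327, with 24735 bases between them. The core of the metal response element, through which zinc induces metallothioneins, was searched as TGCACNC and TGCGCNC on both strands and was in 25.7% of all promoters. *Mt1* held 3 matches, 23 bases before and 2 and 20 bases after the RefSeq start, and *Mt3* held 1, 27 bases after its start. The *Mt1* start site used here lies inside the *Mt1* span given above, and so does the match before it. The first match of each is shown in capitals in 30 bases.
*Mt1*, chr8:94179055-94179084: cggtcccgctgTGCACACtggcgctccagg
*Mt3*, chr8:94152623-94152652: cgggacagcagTGCACACacacggagagca
Both show the same TGCACAC letters. A match of letters is no evidence that a factor binds there.

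Radial glia in division were compared with those in which no UMI of *Mki67*, *Top2a* or *Cenpf*, genes of dividing cells, was found. By the rule these were 523 and 564 cycling cells (at least 3 such UMIs) and 398 and 449 non-cycling cells. *Aldoc*, *Mt3*, *Mt1* and *Fabp7* were higher in cycling cells, by 0.84, 0.83, 0.79 and 0.77 on the log2 scale, and *Apoe* was lower, at -0.79 (edgeR adjusted p = 0.0155). That made 4 higher of 8 tested, beside 21.8% of all genes, and 1 lower, beside 22.4%.

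This direction came with the mixed cells. Without them 501 and 540 cycling and 182 and 201 non-cycling cells remained, and the signs of *Aldoc*, *Mt3*, *Mt1* and *Fabp7* turned, to -0.33, -0.34, -0.28 and -0.40, none of them called (edgeR adjusted p from 0.057 to 0.168). No gene was higher, beside 7.06% of all genes, and 2 were lower, beside 3.86%. With the embryo as a block 6 of 8 were lower and none higher. That fit also called more of all genes, as given in the closing section, so the shares above do not apply to it. Its own share in each direction is not given here, so its count is not read as a result about the members. No member was higher at an unadjusted p under 0.05 in edgeR, and DESeq2 was not run on unmixed cells.

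The genes that were lower in cycling unmixed radial glia were *Apoe* and *Slc1a2*. *Apoe* was at 42.12 and 44.42 CPM in cycling and 96.74 and 144 CPM in non-cycling cells, a log2 difference of -1.42 (SE 0.167, edgeR adjusted p = 0.000208). *Slc1a2* was at 26.53 and 42.67 CPM against 50.35 and 98.5 CPM, a log2 difference of -1.05 (SE 0.281, edgeR adjusted p = 0.0369). For both genes each cycling value lay below the non-cycling values. The share of all genes without such overlap was not taken, so the separation adds no support to the calls. *Fabp7* was at 3964 and 3938 CPM against 4675 and 6211 CPM, at -0.40 (edgeR adjusted p = 0.057). The cycling cells were deeper, with medians of 14437 and 12457.5 UMIs against 9954 and 8498, and the part of depth in these differences was not tested.

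**Figure D3:**
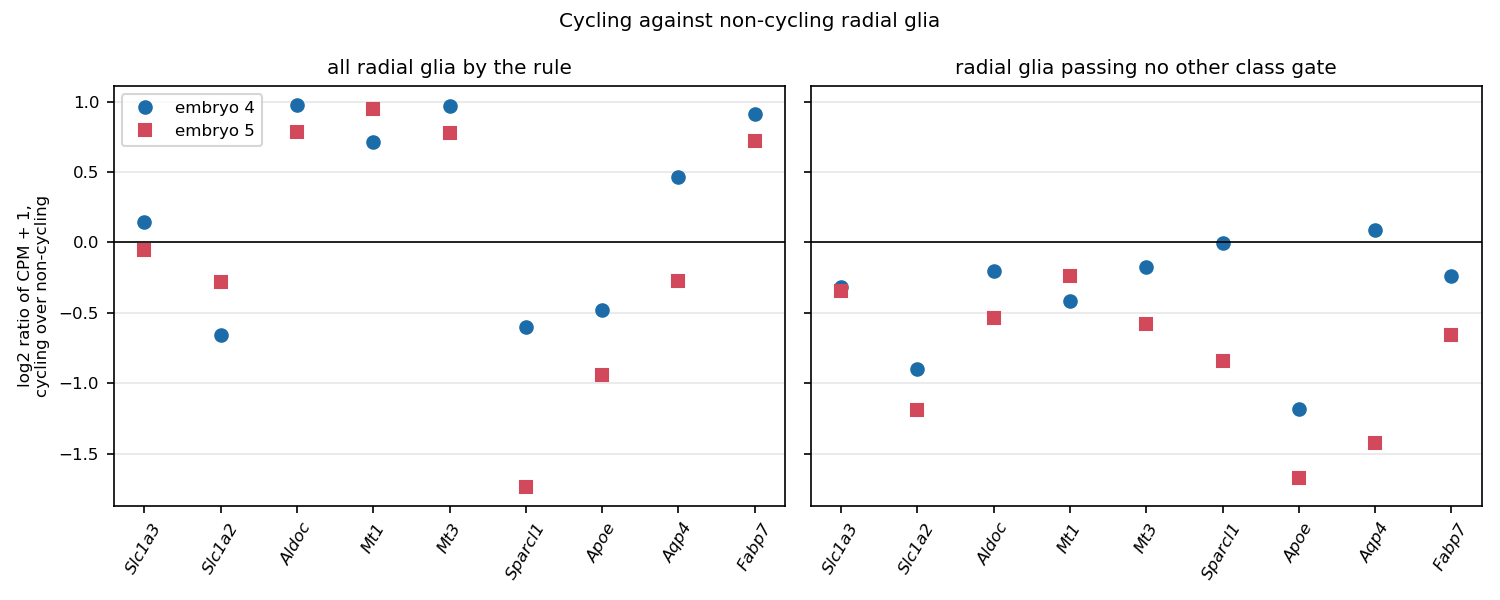
Log2 ratio of CPM + 1 in cycling over non-cycling radial glia for 9 of the genes in each embryo, over all radial glia of the rule (left) and unmixed radial glia (right). *Aldoc*, *Mt1*, *Mt3* and *Fabp7* lay above 0 on the left and below 0 on the right in both embryos, and *Apoe* and *Slc1a2* lay below 0 in both.

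Other astroglial genes changed in the same comparison. Of 29 other astrocyte genes tested in unmixed cells, 9 were lower and 1 higher in cycling cells (by the rule 4 lower and 15 higher of 32), with a median log2 difference of -0.29 against -0.02 over all genes. The shares over all genes were 3.86% lower and 7.06% higher in unmixed cells, and 22.4% and 21.8% by the rule. The adhesion molecule *Hepacam* was at 2.462 and 3.35 CPM in cycling and 13.58 and 9.909 CPM in non-cycling cells, and *Stat3* at 13.95 and 13.84 CPM against 43.56 and 30.89 CPM. The lipid exporter *Abca1*, which loads *Apoe*, was at 30.36 and 42.96 CPM against 84.86 and 73.44 CPM. Of 31 gliogenic regulators 2 were higher and 3 lower, where the rule gave 20 and 4, so that the share higher in unmixed cells was close to the 7.06% over all genes. *Ezh2*, a chromatin repressor, was higher in cycling cells, at 499.7 and 518.8 CPM against 275.5 and 298.4 CPM. *Neurog2*, which drives neurogenesis, was also lower in cycling cells, at 39.39 and 21.7 CPM against 101.8 and 49.54 CPM.

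Radial glia with at least 2 *Neurog2* UMIs numbered 114 and 62 by the rule, and 873 and 993 had none. *Fabp7* and *Mt3* were lower in *Neurog2*+ cells, at -0.86 and -0.58, and *Mt1* was higher, at 0.52 (edgeR adjusted p = 0.0267). Of 8 genes tested this was 1 higher, beside 1.61% of all genes, and 2 lower, beside 5.5%. The block gave 1 higher and 5 lower, but it also called more of all genes, so these shares do not apply to it. The block's own shares are not given here, so its counts are not read as a result about the members.

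In unmixed cells, 110 and 59 *Neurog2*+ against 619 and 707 negative ones, 3 genes were lower, beside 1.24% of all genes, and none higher in edgeR, also at an unadjusted p under 0.05, beside 0.879%. *Fabp7* was at 2121 and 1834 CPM against 4730 and 4909 CPM, at -1.27 (SE 0.092, edgeR adjusted p = 5.91e-05). *Mt3* was at 490.4 and 449.7 CPM against 902.5 and 1055 CPM, at -1.04 (SE 0.111, edgeR adjusted p = 0.000877). *Aldoc* was at 190.3 and 250 CPM against 351.8 and 360.5 CPM, at -0.71 (SE 0.13, edgeR adjusted p = 0.016). None of the 3 genes overlapped between the groups. How many of all genes were separated in this way was not counted, so the separation adds no support to the calls.

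*Mt1* was not called alongside *Mt3*. It was at 163.2 and 168.7 CPM in *Neurog2*+ and 164.3 and 147.9 CPM in *Neurog2*-negative unmixed cells, at 0.10 (SE 0.12, edgeR adjusted p = 0.784). Whether the genes differ in this was not tested. *Sparcl1* was at 12.87 and 7.397 CPM against 20.11 and 31.72 CPM and was not called, at -1.21 (edgeR adjusted p = 0.128). *Apoe* and *Slc1a2* were not called at -0.56 and -0.41.

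Of 30 other astrocyte genes tested in unmixed cells, 5 were lower and none higher in *Neurog2*+ cells (4 lower and none higher of 32 by the rule), with a median of -0.41. *Aldh1l1* was at 10.16 and 7.397 CPM against 30.76 and 37.49 CPM, and *Tnc* at 130.7 and 186.4 CPM against 323.4 and 375.1 CPM. Among 31 gliogenic regulators 2 were lower and 2 higher (2 and 5 by the rule). Over all genes 1.24% were lower and 0.879% higher in unmixed cells, and 5.5% and 1.61% by the rule. *Id1* was at 14.22 and 25.15 CPM against 66.05 and 45.39 CPM. Of 13 neurogenic genes 7 were higher and none lower (7 higher and 6 lower of 15 by the rule), such as the Notch ligand *Dll1* (32.51 and 23.67 CPM against 3.504 and 2.884 CPM) and *Gadd45g* (195.8 and 152.4 CPM against 20.37 and 15.17 CPM).

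Radial glia with markers of the ventral telencephalon (at least 2 UMIs of *Gsx2*, *Dlx1*, *Dlx2* and *Nkx2-1*, no *Emx1*) were few, 57 and 54 by the rule and 38 and 45 unmixed, beside 392 and 343, or 304 and 278 unmixed, cells with *Emx1* of the dorsal cortex and no ventral marker. Of 7 genes tested, 4 were higher in ventral-marker cells, beside 2.86% of all genes by the rule and 2.95% in unmixed cells, and 1 was lower, beside 3.92% and 2.55%. The genes were *Slc1a2*, *Apoe*, *Mt3* and *Fabp7*, higher, and *Aldoc*, lower, by the rule and in unmixed cells. Unmixed ventral-marker cells were shallower, with medians of 9544 and 9955 UMIs against 13603.5 and 12465.5 in unmixed *Emx1*+ cells. The part of depth in these differences was not tested apart from the gate. *Gfap* and *Aqp4* were not tested.

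*Slc1a2* was at 91.23 and 198.7 CPM in unmixed ventral-marker cells and 22.56 and 28.64 CPM in *Emx1*+ cells, a log2 difference of 2.51 (SE 0.289, edgeR adjusted p = 0.000134). Its UMIs lay in 18 of 38 and 30 of 45 cells. *Mt3* was at 1090 and 1352 CPM against 638.9 and 598.2 CPM, at 0.96 (SE 0.144, edgeR adjusted p = 0.00114), and *Fabp7* at 5894 and 6581 CPM against 3346 and 3178 CPM, at 0.91 (SE 0.128, edgeR adjusted p = 0.000713). *Aldoc* went the other way, at 139.4 and 185.6 CPM against 296.5 and 343.2 CPM, at -0.99 (SE 0.176, edgeR adjusted p = 0.00372), and *Mt1*, at 63.35 and 113.5 CPM against 160.2 and 127.9 CPM, was not called (-0.71, edgeR adjusted p = 0.126).

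*Apoe* was at 144.4 and 181.2 CPM in ventral-marker cells against 50.65 and 68.74 CPM, at 1.44 (SE 0.209, edgeR adjusted p = 0.000919), but 1 cell held 20 of its 57 UMIs in embryo 4 and 1 cell 39 of its 83 UMIs in embryo 5. Without those cells it was at 95.83 and 97.86 CPM. The ventral result also depended on the gate. When cells were thinned to 3000 UMIs before gating, none of the 4 genes was called higher, *Slc1a2* was at 1.41 (edgeR adjusted p = 0.0707), and *Mt3* and *Fabp7* turned to -0.19 and -0.17. Only 39 and 38 ventral-marker cells by the rule were left there.

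The ventral-marker cells also differed in other astroglial genes. Of 28 other astrocyte genes tested in unmixed cells, 10 were higher and 1 lower (11 and 1 of 31 by the rule). The shares over all genes were 2.95% higher and 2.55% lower in unmixed cells, and 2.86% and 3.92% by the rule. *Hepacam* was at 27.87 and 28.39 CPM against 1.151 and 1.364 CPM. *Fgfr3*, a growth factor receptor of astrocyte progenitors, was lower, at 27.87 and 24.02 CPM against 72.52 and 55.1 CPM. Of 31 gliogenic regulators 4 were higher and 5 lower (4 and 8 by the rule), *Egfr* at 83.62 and 141.9 CPM against 4.144 and 3.001 CPM and *Nfix* at 205.3 and 187.8 CPM against 421.3 and 447.4 CPM. *Hopx*, a gene of basal radial glia, was at 10.14 and 26.2 CPM against 63.31 and 89.2 CPM.

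**Figure D4:**
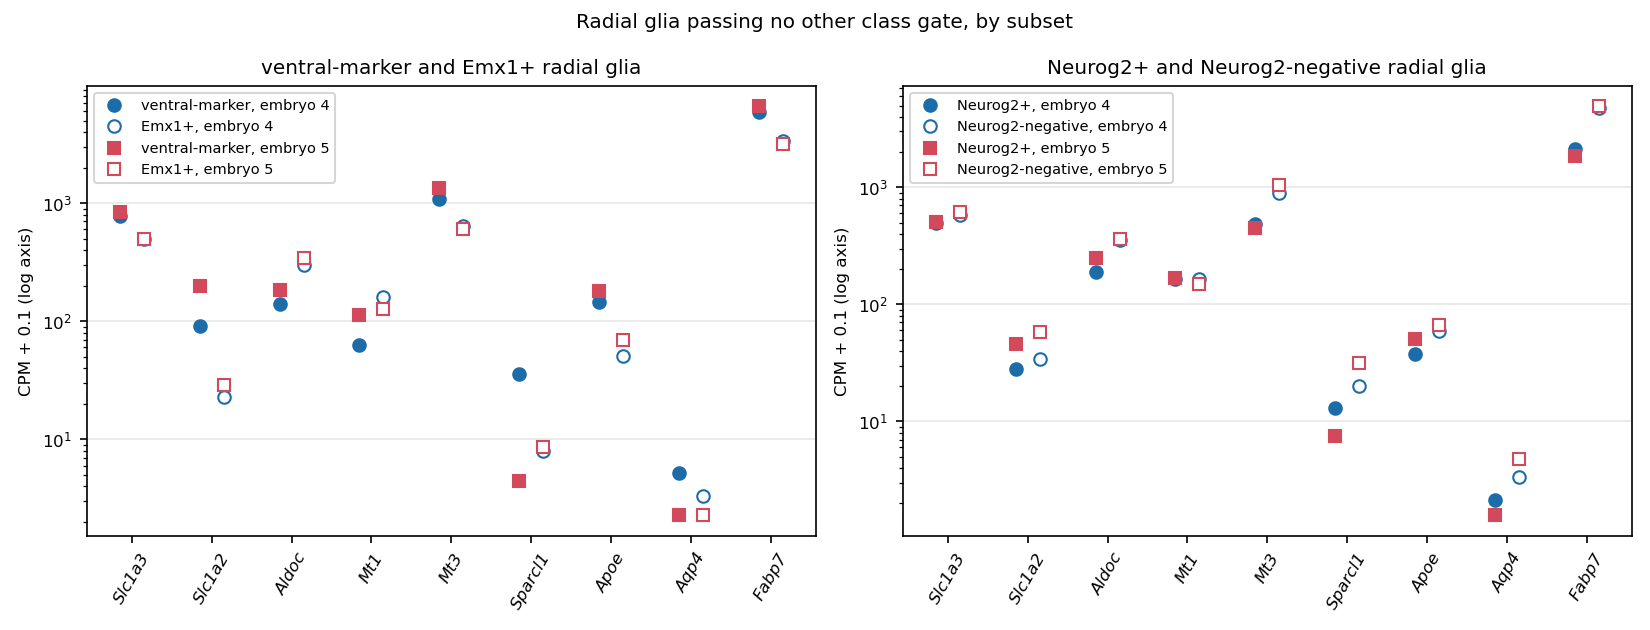
Level (CPM + 0.1, log axis) of 9 of the genes in unmixed radial glia with ventral markers or *Emx1* (left) and with or without *Neurog2* (right), with filled and open symbols for the paired subsets and 1 symbol per embryo. *Slc1a2*, *Apoe*, *Mt3* and *Fabp7* were higher and *Aldoc* lower with ventral markers, and *Fabp7*, *Mt3* and *Aldoc* were lower with *Neurog2*.

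Correlations between the genes were taken over the cells within radial glia. After thinning to 3000 UMIs, 5 pairs of genes had a Spearman correlation of at least 0.2 over radial glia of the rule in both embryos, and all 5 joined *Fabp7*, *Mt3*, *Aldoc* and *Mt1*. In unmixed radial glia 2 pairs were left, *Mt3* with *Fabp7* (0.571 and 0.606) and *Aldoc* with *Fabp7* (0.295 and 0.309). *Mt1* with *Mt3* was at 0.202 and 0.18, and *Slc1a2* with *Apoe* at 0.14 and 0.138. The points are cells of 1 library, share its free RNA, and are no replicates.

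Cells with and without a UMI of 1 gene were set side by side as a description. The 99 and 118 unmixed radial glia with *Sparcl1* had *Fabp7* at 7375 and 8847 CPM, against 3642 and 3800 CPM in those without, and *Mt3* at 1501 and 2065 CPM against 703.4 and 792.4 CPM. They were lower in *Slc1a2*, at 16.58 and 31.83 CPM against 33.09 and 59.24 CPM, and in *Apoe*, at 41.46 and 21.98 CPM against 55.83 and 72.21 CPM. Their median depth was 12879 and 10531.5 UMIs against 11861.5 and 10942.5.

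The 140 and 200 unmixed radial glia with *Slc1a2* had *Apoe* at 131.4 and 133.4 CPM, against 38.01 and 44.64 CPM, and *Fabp7* at 5050 and 6596 CPM, against 3914 and 3850 CPM. Of these cells 12.9% and 15% were ventral-marker cells, against 2.89% and 2.29% of those without *Slc1a2*, and 33.6% and 30% were non-cycling, against 19.5% and 21.6%. The part of these groups in the *Apoe* difference was not tested. The 30 and 33 cells with *Aqp4* had *Fabp7* at 5375 and 7443 CPM, against 4060 and 4369 CPM, and *Apoe* at 148.5 and 112.5 CPM, against 50.35 and 63.39 CPM.

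**Figure D5:**
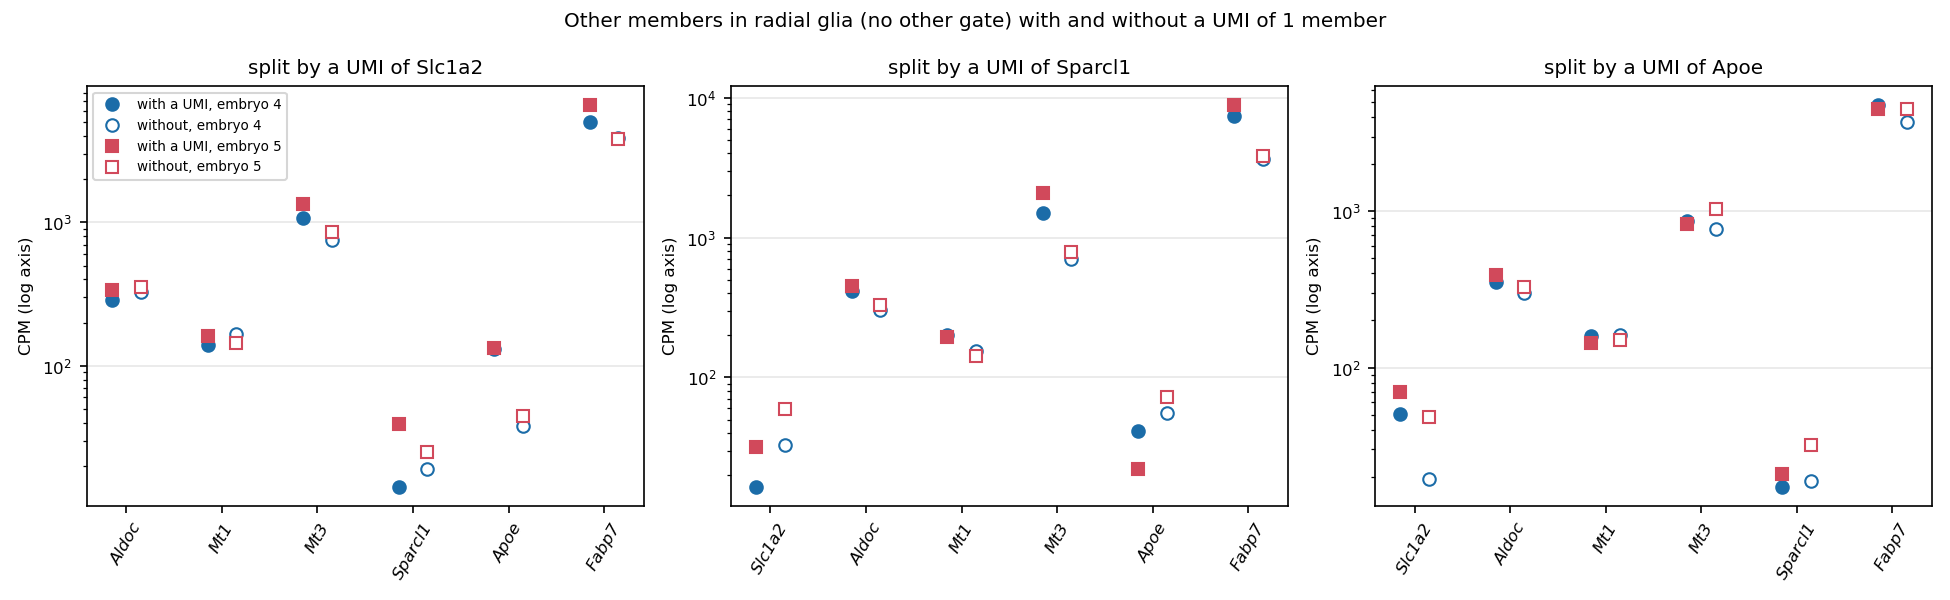
CPM (log axis) of the other genes in unmixed radial glia with (filled) and without (open) a UMI of *Slc1a2*, *Sparcl1* or *Apoe*, 1 symbol per embryo. Cells with *Sparcl1* had more *Fabp7* and *Mt3* and less *Slc1a2* and *Apoe*, and cells with *Slc1a2* had more *Apoe*.

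The genes with the most similar pattern were found by Pearson's r of log2(CPM + 1) over 16 profiles (cell classes in each embryo), among 10990 genes with at least 20 CPM in some profile. *Fabp7* and *Aldoc* were among each other's nearest genes, with r = 0.927. *Slc1a3* was nearest to *Prdm16* (r = 0.934), *Aldoc* to *Palld* (0.946), *Mt3* to *BC052040* (0.972) and *Mt1* to *Fen1* (0.949). *Slc1a2* was nearest to *Lrp1b* (0.977), *Sparcl1* to *Fn1* (0.963) and *Apoe* to *Tpp1* (0.973). *Aqp4* and *Gfap* stayed under 20 CPM and were not ranked. The profiles of 1 embryo share its library, and these values are descriptions.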

How the data were processed

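The authors deposited 1 matrix of raw UMI counts per embryo, from 10x Genomics 3′ v3.1 libraries counted with Cell Ranger (7.0.0 in the processing notes, 7.1.0 in the matrix headers) on mm10. Whether intron reads were counted is not given in the sources used here, and the intron setting would shift counts between genes.

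Cells with at least 1000 genes and at most 10% mitochondrial UMIs were kept. Doublets were scored against simulated doublets, and the top 0.8% per 1000 cells was removed. Scores at or above that cut were reached by 64.2% and 73.69% of the simulated doublets. Classes were set by UMI gates: *Slc1a3* at least 3 with *Eomes* at most 1 (radial glia), *Eomes* at least 2, *Neurod2* and *Neurod6* at least 3 (excitatory), *Gad1*, *Gad2* and *Dlx6os1* at least 4 (GABAergic), *Trp73*, *Lhx1* and *Lhx5* at least 2 with *Reln* at least 5 (Cajal-Retzius), and 3 UMIs of marker trios for microglia, endothelial, mural and other classes. Cells of a compared class other than radial glia passed 1 gate only, and classes under 20 cells were not described. Radial glia by the rule, and their subsets, kept cells that passed another gate, and only the unmixed cells left them out.

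For each class of each embryo the UMI counts were added up, and 2 sums were tested against 2 with edgeR 4.0.16 (TMM, filterByExpr, quasi-likelihood, adjusted over all genes) in R 4.3.3, after a test on simulated data. DESeq2 1.42.0, other filters, cell cuts, gates and thinning were alternatives. Sums of 1 embryo share an animal, and their deviations correlated at 0.177 to 0.425 over genes, so a fit with the embryo as a block is given where it changed a call. Embryos are the replicates, and p-values measure the spread between 2 of them, from 1 line. Python 3.11.15 and scipy 1.17.1 gave shares, exact binomial (Clopper-Pearson) intervals and correlations. The text names the 10 members, a selection from up to 2 called genes with the largest and 2 with the smallest log2 fold change per list and comparison, and each member's nearest genes. The members, gates and lists were chosen with earlier results of these data known. Positions are RefSeq's for GRCm38.p6, the build named mm10, matched by symbol.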

Additional observations from a re-analysis of the deposited data

How the results depend on the processing

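Of 570 fitted values of members under the alternatives other than the block without mixed cells, 515 kept their direction and their side of the threshold, 25 became called, 13 were no longer called, 10 without a call moved, and 7 reversed. The reversals lay in the subset comparisons. Leaving out cells that passed another class gate turned the cycling differences of *Mt3* to -0.34, *Mt1* to -0.28, *Fabp7* to -0.40 and *Aldoc* to -0.33, and the same with the replicate block gave -0.32, -0.28, -0.39 and -0.32. Thinning to 3000 UMIs before the gates turned *Mt1* with *Neurog2* to -0.10, and *Mt3* and *Fabp7* with ventral markers to -0.19 and -0.17. The cause was not tested beyond the gate itself.

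Counts of all genes called moved as well. Against *Eomes*+ cells 4142 genes became 2683 with DESeq2. For cycling cells 6115 became 1386 without mixed cells, 3970 with thinning before the gates and 2431 without mixed cells and with the block. For *Neurog2* 975 became 2045 with the block, 158 with no filter, 431 with doublets kept, 263 with at least 5 *Slc1a3* UMIs and 268 without mixed cells. For ventral markers 799 became 1387 with the block, 531 with DESeq2, 1302 with no filter, 376 with at least 5 *Slc1a3* UMIs and 241 with thinning.

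Counts of members called moved little against the other classes. The count lower than in *Eomes*+ cells went from 0 to 1 with the replicate block, at least 2000 genes per cell, doublets kept, at least 2 *Slc1a3* UMIs, or the block without mixed cells, and the count lower than in GABAergic neurons from 0 to 1 with the block, with or without mixed cells. Lower in cycling cells went from 1 to 3 with the block, 2 with doublets kept or without mixed cells, 0 with at least 2 *Slc1a3* UMIs or thinning, and 6 without mixed cells and with the block, and higher from 4 to 0 without mixed cells, with or without the block. Lower with *Neurog2* went from 2 to 5 with the block, 0 with no filter and 4 with the block without mixed cells, and higher from 1 to 0 with no filter, doublets kept, at least 5 *Slc1a3* UMIs, thinning, or without mixed cells in both fits. Lower with ventral markers went from 1 to 2 with the block (with or without mixed cells), no filter or thinning and to 0 with at least 5 *Slc1a3* UMIs, and higher from 4 to 0 with thinning. Of values without a fit, the 3 genes found in at least 50% of radial glia became 1 at 2000 UMIs, and the 5 correlated pairs became 8 at 5000 UMIs and 2 without mixed cells. The block without mixed cells, and the pairs without them, were added after seeing the data.

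Leaving 1 of 2 embryos out of both classes leaves no residual spread, so the other embryo's values, given in the text, stand without a test. A comparison of radial glia with and without *Olig1* and *Olig2* was not run, since only 11 and 5 cells passed that gate. *Aqp4* and *Gfap* rest on few UMIs, and levels in microglia, endothelial and mural cells on few cells.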

Other observations

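Cells with at least 3 *Slc1a3* UMIs that passed only the excitatory neuron gate besides (246 in embryo 4 and 232 in embryo 5, with medians of 14468 and 12095 UMIs) differed from other excitatory neurons in more than *Slc1a3*. The genes named here were chosen after their values were seen, and no test was run. *Tafa1*, a secreted chemokine-like protein, was at 859.3 and 1026 CPM against 198.8 and 248.7 CPM in other excitatory neurons, *Tafa2* at 743.7 and 1041 CPM against 247.5 and 277.1 CPM, and *Trps1* at 214.2 and 285.6 CPM against 75.57 and 81.36 CPM. *Fabp7* was at 160.2 and 191.5 CPM against 114.6 and 80.27 CPM, far under its level in unmixed radial glia.

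Cells that passed no gate at all (1021 and 1023) held *Fabp7* at 1846 and 1740 CPM, *Mt3* at 321.1 and 315.8 CPM and *Aldoc* at 183.9 and 235.1 CPM, with *Slc1a3* at 91.71 and 102.8 CPM. *Fabp7*, *Mt3* and *Aldoc* thus lay between *Eomes*+ cells and unmixed radial glia in both embryos, while *Slc1a3*, which the gates use, lay below both, with 144.8 and 168.4 CPM in *Eomes*+ cells. The cells without a gate had median depths of 4848 and 6572 UMIs, against 11966 and 10909.5 in unmixed radial glia. A shallow cell reaches a fixed UMI gate less often, and the part of depth here was not tested.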
